A study of Mus musculus with 2 samples.

Results

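Oxidative phosphorylation is built from subunits of 2 genomes, and the genes of both were followed here in mouse AE9a leukemia cells. Members were the genes whose symbol starts with mt-, or matches the naming of the NADH dehydrogenase (Nduf), succinate dehydrogenase (Sdh), cytochrome bc1 (Uqcr), cytochrome c oxidase (Cox5 to Cox8) and ATP synthase (Atp5) subunits, pseudogenes left out. The naming matched 95 of 31053 annotated genes. With at least 50 UMIs (unique molecular identifiers, each standing for 1 captured RNA molecule) over both libraries, 89 were kept, 13 mitochondrially and 76 nuclear encoded. Of the 6 genes under 50 UMIs, Cox6a2 had 22, Ndufa4l2 had 22 and a second identifier of Atp5o, which overlaps the first, had 16. Cox7b2, Cox8b and Cox8c had none.

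AE9a is a truncated AML1/ETO fusion that drives acute myeloid leukemia in mice. Fetal liver cells of Usp18+/f mice with a tamoxifen-activated Cre had been transduced with a retrovirus that carries AE9a and GFP, and the leukemia was passed on into sub-lethally irradiated C57BL/6 recipients. Sick recipients were given oil (the group Usp18+/f) or tamoxifen (the group Usp18+/Δ), and 3 days from the first dose the spleen was sorted for GFP+ Lin- c-Kit+ cells. Each group is a pool of 3 mice with 8000 cells targeted for single-cell RNA-seq, and so 1 library with no replicate. Both groups carry 1 floxed Usp18 allele and the Cre, and they differ in tamoxifen as well as in the allele. The host animals kept their own Usp18, and neither ages nor sexes were used here.

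Usp18, the targeted gene, had 5.65 CPM (UMIs per 1000000 UMIs of the library; 95% interval 5.08 to 6.27, 354 UMIs) in the library labelled oil and 23.8 CPM (22.6 to 25, 1520 UMIs) in the library labelled tamoxifen. Its RNA was thus higher where 1 allele should be deleted, which goes against the label, and Usp18 is itself an interferon-stimulated gene. Counts made at the 3′ end may lie outside the deleted part, so that this level does not check the deletion. All directions below are between libraries as labelled, oil (Usp18+/f) and tamoxifen (Usp18+/Δ).

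The library totals were 63690481 UMIs over 7281 barcodes and 65146263 UMIs over 7833 barcodes, of which 6886 and 7406 passed limits of 500 genes at the least and 10% mitochondrial UMIs at the most, with medians of 8670 and 8148 UMIs. The libraries shared 15 deposited barcodes. The T cell, B cell and NK cell marker lists each summed to at most 0.235 CPM in either library, and the macrophage list to 1.52 and 4.10 CPM. The neutrophil list was at 0.0319 CPM in the library labelled oil, with 4 of its 5 genes at 0, and at 20.4 CPM in the library labelled tamoxifen. The erythroid list, mostly globin RNA, stood at 3836 and 3935 CPM. In the library labelled oil, 313 kept barcodes had under 2% mitochondrial UMIs, against 61 in the library labelled tamoxifen.

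The respiratory chain passes electrons from NADH through complex I, or from succinate through complex II, to ubiquinone, then through complex III and cytochrome c to complex IV, which reduces oxygen. The protons pumped on the way drive ATP synthase, complex V. Mitochondrial DNA encodes a few core subunits of complexes I, III, IV and V as parts of long transcripts of both strands, which are then cut at the transfer RNAs. Complex II and all other subunits are made from nuclear genes and imported.

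Of the mitochondrial genes, 2 pairs share 1 RNA, and their ends are shown because counts at the 3′ end cannot be told apart there. In the GRCm38 annotation (GENCODE vM21), mt-Atp8 lies at chrM:7766-7969 and mt-Atp6 at chrM:7927-8607, both on the plus strand, so that the last 43 bases of mt-Atp8 (capitals) are the first of mt-Atp6. Likewise mt-Nd4l at chrM:9877-10173 shares its last 7 bases with mt-Nd4 at chrM:10167-11544. mt-Nd6, the single protein gene on the minus strand (chrM:13552-14070), runs against mt-Nd5 (chrM:11742-13565) over 14 bases, shown in capitals on each gene's own strand.
mt-Atp8 end (chrM:7910-7969, plus strand): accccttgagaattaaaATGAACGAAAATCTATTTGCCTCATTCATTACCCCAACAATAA
mt-Nd4l end (chrM:10134-10173, plus strand): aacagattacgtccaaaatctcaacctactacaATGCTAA
mt-Nd5 end (chrM:13526-13565, plus strand): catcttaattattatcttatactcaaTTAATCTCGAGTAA
mt-Nd6 end (chrM:13552-13591, minus strand): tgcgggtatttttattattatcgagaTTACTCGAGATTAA

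Levels of these genes differed widely within a library and little between libraries. mt-Atp6, the proton channel subunit of ATP synthase, was the highest, at 14117 CPM in the library labelled oil and 13729.5 CPM in the library labelled tamoxifen. mt-Atp8, which shares its RNA, had 66.9 and 67.1 CPM, so that mt-Atp6 had 211 times (95% interval 205 to 217) and 205 times (199 to 211) as many UMIs. mt-Nd4 had 3785 and 3859 CPM, 31.3 and 32.9 times as many UMIs as mt-Nd4l with 121 and 117 CPM. Counts made at the 3′ end cannot follow each part of a shared RNA, so that the levels of mt-Atp8 and mt-Nd4l are uncertain.

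The catalytic core of complex IV came next. mt-Co3 had 12571 and 12963 CPM, mt-Co2 had 10298 and 10571 CPM, and mt-Co1, which holds the oxygen-reducing site, had 10012 and 10538 CPM in the libraries labelled oil and tamoxifen. mt-Cytb, the cytochrome b of complex III, had 4001 and 4141 CPM. The complex I core subunits mt-Nd1 (4056 and 4199 CPM) and mt-Nd2 (3025 and 3082 CPM) lay in the same range. mt-Nd3 (550.5 and 552 CPM) and mt-Nd5 (540.1 and 570.1 CPM) were lower, and mt-Nd6 had 100.5 and 104 CPM. All 13 genes were within 0.1 of 0 on the log2 scale between libraries. They ran from mt-Nd4l, with a log2 ratio of -0.04 (95% interval -0.09 to 0.00), to mt-Nd5, with 0.08 (0.06 to 0.10), and mt-Co1 reached 0.07 (0.07 to 0.08).

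Most nuclear subunits had lower levels per gene. These are UMI counts at the 3′ end, 1 per molecule, and are therefore not divided by length. Complex I was led by Ndufa4, now placed in complex IV by structure (565 and 532 CPM), Ndufb9 (497 and 538 CPM) and Ndufa13 (377 and 360 CPM). Complex II was led by its membrane anchors Sdhd (232 and 212 CPM) and Sdhc (165 and 163 CPM), followed by its flavoprotein Sdha (128 and 136 CPM). Complex III was led by Uqcrh (575 and 591 CPM), Uqcr11 (323 and 306 CPM) and Uqcrb (323 and 302 CPM). Complex IV had Cox5b at 887 and 833 CPM, Cox8a at 697 and 739 CPM, and Cox6c at 736 and 691 CPM. ATP synthase had Atp5g2, a gene for the c ring, at 1178 and 1149.7 CPM, the catalytic Atp5b at 753 and 819 CPM, and Atp5h at 698 and 681 CPM.

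Several subunits come as isoforms from different genes, and most sets were led by 1 gene. Cox6a1 had 26497 and 25232 UMIs, against 7 and 15 for Cox6a2, the heart and muscle form. Cox7a2 had 50.7 and 50.6 times as many UMIs as Cox7a1, the other muscle form, which had 8.91 and 8.44 CPM. Cox7a2l, which is known to join complexes III and IV into supercomplexes, had 326 and 331 CPM. Cox6b1 had 18.6 times (17.7 to 19.6) as many UMIs as Cox6b2, the testis form, in the library labelled oil, and 13.6 times (13.0 to 14.3) in the library labelled tamoxifen. The c ring genes Atp5g1, Atp5g2 and Atp5g3 were all used, with Atp5g2 at 1.92 and 1.89 times Atp5g1 and 2.21 and 2.12 times Atp5g3. Ndufa4l2, the low-oxygen form of Ndufa4, had 9 and 12 UMIs.

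The question set by the design was whether the subunits of either genome differed between the libraries. Together the 13 mitochondrial genes took 6.32% of UMIs in the library labelled oil and 6.45% in the library labelled tamoxifen, a log2 ratio of 0.03 (95% interval 0.026 to 0.030), which other choices of cells and scaling moved to between 0.0119 and 0.0556. The 76 nuclear genes took 2.45% and 2.39%, a log2 ratio of -0.04 (-0.040 to -0.033). Mitochondrial over nuclear UMIs stood at 2.58 and 2.70, which is 0.06 on the log2 scale (0.061 to 0.068), and between 0.03996 and 0.104 under those choices. With 1 library a group there was no test, and all intervals cover counting error only, not the spread between mice or libraries. Both differences are thus small, opposite in sign and without a replicate check.

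The mitochondrial difference was not the same in all cells. Cells were thinned to 3000 UMIs and cut into 3 bins of near equal size over both libraries by their share of G2M genes, and its log2 ratio was -0.05 (-0.058 to -0.046) in the lowest bin, 0.03 (0.023 to 0.035) in the middle and 0.04 (0.033 to 0.045) in the highest. Nuclear subunits were lower in the library labelled tamoxifen in all 3 of these bins, with log2 ratios of -0.06, -0.01 and -0.05. Over 3 bins by S phase genes they were at -0.08, -0.03 and -0.02. The lowest bin by G2M genes held 30.5% of cells of the library labelled oil and 38.6% of the library labelled tamoxifen, and the highest 36.6% and 28.7%.

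By complex, the mitochondrial subunits of complexes I, III and IV were higher in the library labelled tamoxifen, with log2 ratios of the summed level of 0.04 (0.031 to 0.040), 0.05 (0.042 to 0.057) and 0.05 (0.049 to 0.054). Those of complex V were lower, at -0.04 (-0.044 to -0.036), which is mt-Atp6 almost alone. The nuclear subunits of complex I (36 genes, -0.06) and complex IV (12 genes, -0.06) had the lower sums, followed by complex II (4 genes, -0.03) and complex V (16 genes, -0.01). Those of complex III (8 genes) had 0.00 (-0.008 to 0.014). In the library labelled oil, mitochondrial UMIs per nuclear UMI of the same complex were 1.58 for complex I, 1.82 for complex III, 6.06 for complex IV and 1.67 for complex V. In the library labelled tamoxifen they were 1.69, 1.87, 6.54 and 1.64.

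**Figure D1:**
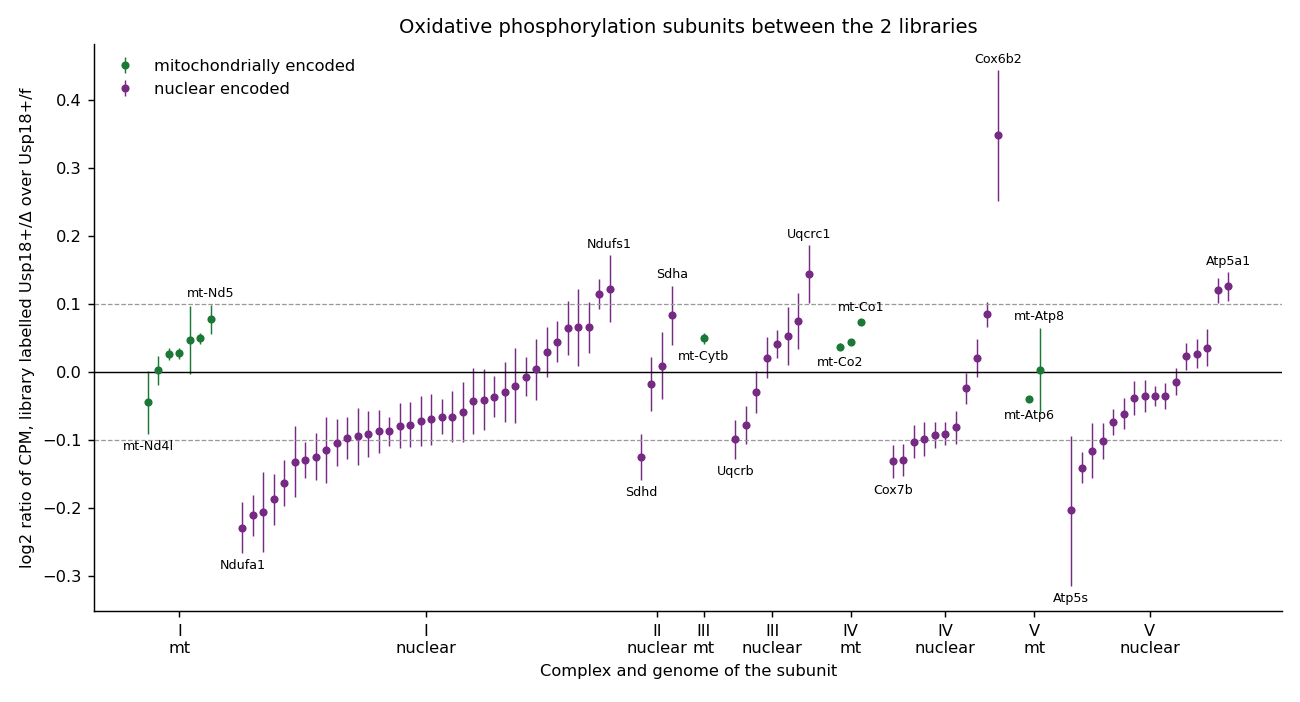
Each point is 1 member with a mean of at least 20 CPM, placed by complex and genome along the x axis, with its log2 ratio of CPM between the libraries (tamoxifen, Usp18+/Δ, over oil, Usp18+/f) on the y axis. Bars are 95% intervals for counting error and dashed lines mark 0.1 either way: no mitochondrial gene passes them, while 18 nuclear genes lie at or below -0.1 and 6 at or above 0.1.

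Of the 76 nuclear members 75 averaged 20 CPM or more. A log2 ratio of -0.1 or less was found in 18 of them (24.0%), and one of 0.1 or more in 6 (8.0%). Of all 5993 genes at that level, 14.7% were that much lower and 15% that much higher. The median nuclear member lay at -0.06, beside 0.00 over all genes. At a log2 ratio of 0.25, which 2.72% of all genes passed upward and 1.52% downward, Cox6b2 alone among members was higher and none was lower. Over the 13 mitochondrial genes, 0 passed 0.1 in either direction, with a median of 0.04.

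The members past 0.1 were of unlike kinds. Higher in the library labelled tamoxifen were Uqcrc1, a large core protein of complex III (134 and 148 CPM, log2 ratio 0.14, 0.10 to 0.19), Atp5a1 and Atp5b, which form the catalytic head of ATP synthase (0.13 and 0.12), and Ndufs1, the largest iron-sulfur subunit of complex I (103 and 112 CPM, 0.12, 0.07 to 0.17). Ndufb9 had 0.11 (0.09 to 0.14). Lower were mainly small accessory subunits of complex I. Ndufa1 had 199 and 170.1 CPM (-0.23, -0.27 to -0.19), Ndufb4 had 305 and 263 CPM (-0.21, -0.24 to -0.18), Ndufa3 had 78.6 and 68.2 CPM (-0.21, -0.27 to -0.15) and Ndufc1 had 189 and 166 CPM (-0.19, -0.23 to -0.15). Atp5s, a factor of ATP synthase rather than a structural subunit, had 22.8 and 19.8 CPM (-0.20, -0.31 to -0.09). No other nuclear member lay as low as these 5. Of the 29 accessory nuclear subunits of complex I, 10 (34.5%) were at -0.1 or less, beside 14.7% of all genes, and 1 at 0.1 or more, with a median of -0.08. Of the 7 nuclear core subunits, 0 were that low and 1, Ndufs1, was that high, with a median of -0.03.

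Set against the length of the longest coding sequence, a comparison chosen after the values were seen, the 54 nuclear members under 600 bases had a median log2 ratio of -0.08, with 16 at -0.1 or less, beside 313 of 1002 such genes among all. The 21 longer members had a median of 0.04, with 2 that low, beside 553 of 4926. The members' counts are thus near those of all genes of like length. The correlation of log2 ratio and log2 length over the 75 genes was r = 0.52 (Spearman's rho 0.57), and within the 36 of complex I r = 0.70 (rho 0.71). The 84 cytosolic ribosomal protein genes had r = 0.50 (rho 0.47) and all 5928 nuclear genes with a length r = 0.20 (rho 0.30), with medians of -0.06 under 600 bases and 0.01 above. Genes of 1 pair of libraries are not independent, and the part of RNA quality or of the library preparation in this gradient was not tested.

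**Figure D2:**
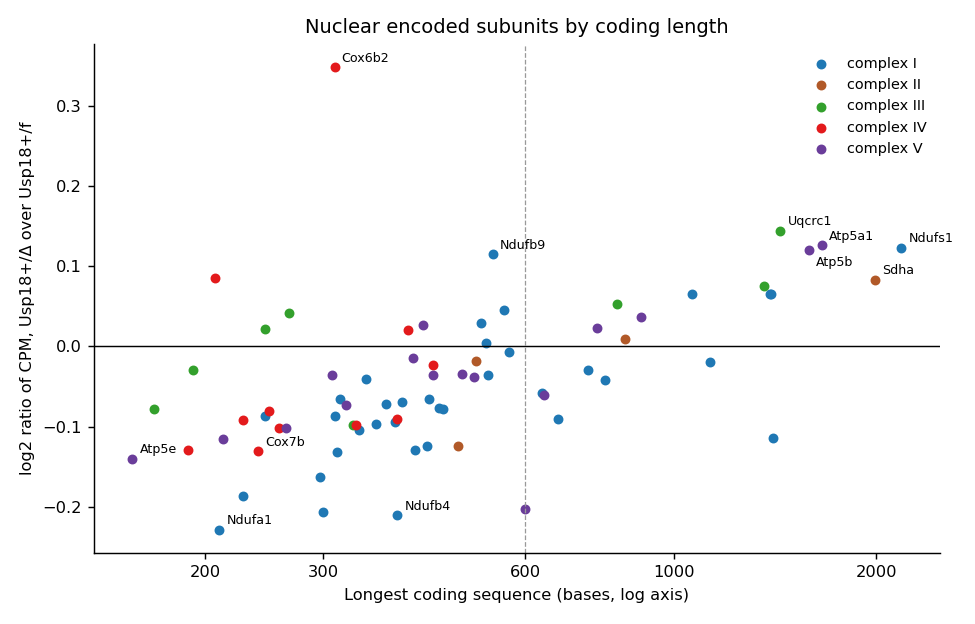
Each point is 1 of 75 nuclear members, coloured by complex, with its longest coding sequence in bases on a log x axis and its log2 ratio of CPM between the libraries on the y axis. The dashed line marks 600 bases: the median is -0.08 to its left and 0.04 to its right, with Cox6b2 apart at 0.35.

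Genes around the chain were taken as lists. Beside the 15% of all genes that were higher and the 14.7% lower by 0.1, 24 assembly factors with at least 20 CPM had 3 higher and 5 lower, with a median of -0.01. The 5 included the complex IV assembly factors Cox20 (74.3 and 59.8 CPM, -0.31), Cox17, a copper carrier (208 and 175 CPM, -0.25), and Coa6 (64.3 and 54.8 CPM, -0.23), while the 3 higher, Coa5 (0.12), Surf1 (0.11) and Cox18 (0.11), serve the same complex. Of 14 genes of mitochondrial DNA replication, transcription and RNA handling, 3 were higher and 2 lower, with a median of 0.01. The transcription factor Tfam had -0.09 (62.2 and 58.6 CPM) and Lrpprc, which keeps mitochondrial mRNAs stable, 0.10 (53.9 and 58.0 CPM). Besides Lrpprc, Pnpt1 (0.18) and Rexo2 (0.11) were higher, and the 2 lower were Slirp (99.6 and 91.2 CPM, -0.13) and Hsd17b10 (-0.13). Of 8 nuclear regulators, 0 were higher and 1, Myc, was lower (146 and 126 CPM, -0.22), while Nrf1 and Gabpa had -0.07 and -0.08. Of 13 genes of the TCA cycle, 2 were higher and 1 lower, of 14 of glycolysis 2 and 3, and of 14 proteasome subunits 0 and 1. Subunits that the naming missed had 1074 and 1082 CPM for Cox4i1 (0.01), 231 and 237 CPM for the cytochrome c1 gene Cyc1 (0.04), 264 and 257 CPM for Ndufab1 (-0.03) and 153 and 149 CPM for the cytochrome c gene Cycs (-0.04). Cox4i2, the lung and low-oxygen form of Cox4i1, had 0.02 CPM in both, 1 UMI each. Atpif1, the inhibitor of ATP synthase when it runs backward, had 1083 and 912 CPM (-0.25, -0.26 to -0.23).

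Binding sites of NRF1 and of ETS family factors such as GABPA are known from promoters of many of these genes, and the 250 bases before the RefSeq start (GRCm38.p6) were searched on both strands. A window was found for 66 of 76 nuclear members, 64 by symbol and 2 by synonym. The NRF1 core GCGCATGC was in 8 of them (12.1%), against 3.32% of 17491 protein-coding genes, the ETS core CCGGAAG in 12 (18.2%, against 10.2%) and the YY1 core AAGATGGC in 1 (1.52%, against 1.77%). The 2 commoner cores are shown in members whose levels are given in the text, as 30 bases in the direction of the gene, with the core (or its reverse complement) in capitals. In Ndufa11 and Atp5g2 the NRF1 core and its reverse overlap. A match is no evidence of binding.
Ndufa11, NRF1 core (chr17:56717692-56717721, plus strand): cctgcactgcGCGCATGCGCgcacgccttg
Atp5g2, NRF1 core (chr15:102671070-102671099, minus strand): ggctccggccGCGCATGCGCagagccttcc
Ndufa6, NRF1 core (chr15:82354356-82354385, minus strand): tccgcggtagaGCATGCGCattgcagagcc
Uqcr11, ETS core (chr10:80406870-80406899, minus strand): tttctctcctccCCGGAAGtagatgtcaat
Sdhd, ETS core (chr9:50603878-50603907, minus strand): accgtctcctgcCTTCCGGttcacgcttca
Of the genes shown, Ndufa11 had 224 and 206 CPM (log2 ratio -0.12) and Ndufa6 had 186 and 177 CPM (-0.07). Among the 18 members with any of these cores, only Uqcrh (0.04), Ndufa8 (0.03) and Sdhb (0.01) lay above 0. Over all nuclear members of at least 20 CPM, 23 of 75 did.

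Across single cells, thinned to 3000 UMIs to remove differences in depth (458 and 353 shallower cells left out), mitochondrial genes took a median of 6.43% of UMIs over 6428 cells of the library labelled oil. The 10th and 90th percentiles were 4.87% and 8.27%. Over 7053 cells of the library labelled tamoxifen the median was 6.47%, with 5.03% and 8.17%. Nuclear subunits took a median of 2.43% (1.80% to 3.03%) and 2.37% (1.67% to 2.97%). Without thinning the medians were 6.31% and 6.43% for mitochondrial and 2.42% and 2.35% for nuclear genes. The distributions overlap almost whole. Counts varied more between cells than counting alone gives, with a variance over mean of 8.29 and 7.16 for mitochondrial and 2.77 and 3.22 for nuclear subunits.

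**Figure D3:**
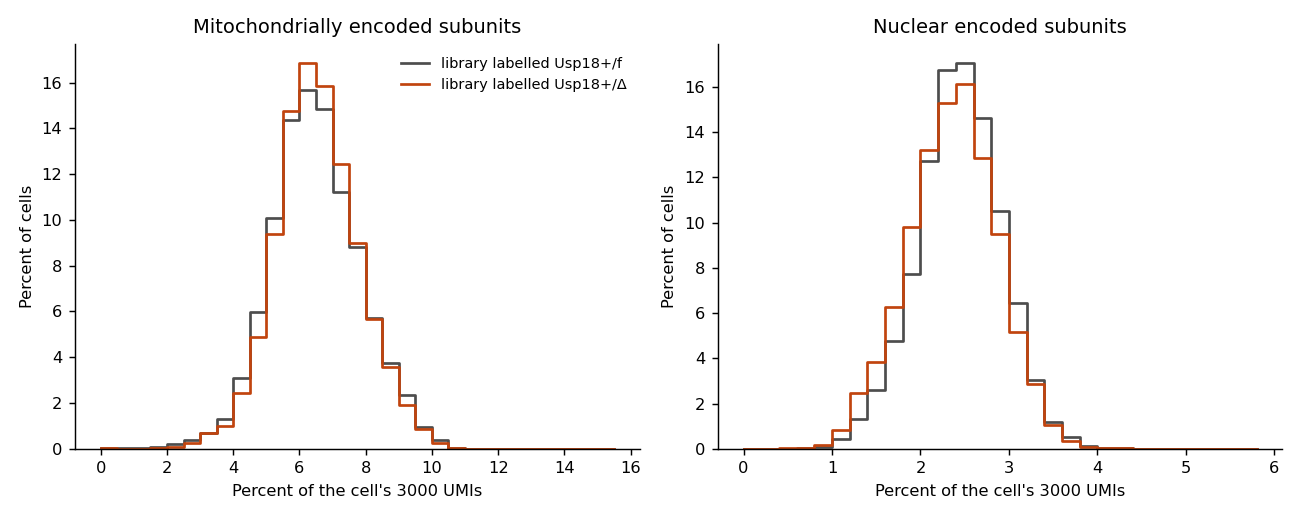
The x axes give the percent of a cell's 3000 UMIs from mitochondrially (left) and nuclear encoded (right) subunits, and the y axes the percent of cells in each bin, for the libraries labelled oil (Usp18+/f) and tamoxifen (Usp18+/Δ). Both peak near the same values, with medians of 6.43% and 6.47% on the left and 2.43% and 2.37% on the right.

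The correlation of mitochondrial and nuclear shares over cells was r = -0.03 in the library labelled oil and -0.01 in the library labelled tamoxifen. Without thinning r was 0.14 and 0.06, with the shallower cells included as well, and none of these values is a finding. The mitochondrial complexes varied together: r lay between 0.43 and 0.59 and between 0.33 and 0.53 over their 6 pairs. Over the 10 pairs of nuclear complexes r was lower, between 0.04 and 0.36 (median 0.20) and between 0.08 and 0.41 (median 0.23). Complexes II and III had the lowest nuclear value in both libraries. Nuclear subunits went with the proteasome list (r = 0.37 and 0.44) more than with ribosomal proteins (0.18 and 0.05). The mitochondrial complexes differed in how they went with the nuclear sum. Complex I had r = 0.11 and 0.21, complex III 0.05 and 0.13, complex V 0.08 and 0.08, and complex IV -0.15 and -0.19. With depth, mitochondrial complex I had 0.01 and 0.15 and mitochondrial complex IV -0.27 and -0.27. All of these are over cells of 1 library that share its preparation, and depth itself had r = -0.20 and -0.13 with the mitochondrial and 0.18 and 0.27 with the nuclear share.

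Cells ordered by cell cycle genes showed the nuclear subunits higher in cells with more S phase UMIs. From the lowest to the highest bin, their share was 2.28%, 2.49% and 2.50% in the library labelled oil and 2.16%, 2.43% and 2.47% in the library labelled tamoxifen. By member, 40 of 75 (53.3%) were higher by 0.1 in the highest than in the lowest bin in the library labelled oil, against 32.8% of all genes, and 46 (61.3%), against 38.2%, in the library labelled tamoxifen. Ordered by G2M genes, 28 (37.3%, against 41.4%) and 29 (38.7%, against 43.7%) were that much higher, shares below those of all genes. The nuclear share was highest in the middle bin by G2M genes, at 2.54% and 2.52%. The summed mitochondrial share went down with G2M genes, from 6.85% through 6.44% to 6.20% in the library labelled oil and from 6.61% through 6.57% to 6.37% in the library labelled tamoxifen. Not all genes did so. Over all UMIs of these cells, 10 and 5 of 13 mitochondrial genes were lower in the highest than in the lowest bin. Mitochondrial complex IV had log2 ratios of -0.19 and -0.15, and mitochondrial complex I had 0.01 and 0.16. Cells with more cycle UMIs were deeper before thinning. The lowest and highest bin by S genes had medians of 7369 and 9713 UMIs in the library labelled oil and 6467 and 9239 in the library labelled tamoxifen. Bins by UMIs alone gave nuclear shares close to those of the S phase bins, at 2.26%, 2.47% and 2.50% in the library labelled oil and 2.14%, 2.44% and 2.47% in the library labelled tamoxifen.

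Thinned to 3000 UMIs, cells with an interferon response had less of the nuclear subunits in both libraries. At least 10 of 3000 UMIs from interferon-stimulated genes were found in 49 cells of the library labelled oil and in 825 cells of the library labelled tamoxifen. In them nuclear subunits took 2.09% and 2.10% of UMIs, against 2.42% and 2.37% in the other cells of the same library, a log2 ratio of -0.21 (-0.26 to -0.16) and -0.18 (-0.19 to -0.16). When cells were not thinned, so that deep cells pass 10 such UMIs more easily, the nuclear log2 ratio shrank to -0.02 in the library labelled oil and turned to 0.02 in the library labelled tamoxifen. The mitochondrial share was 6.25% and 6.32%, against 6.48% and 6.55% (-0.05 in each), but the value of the library labelled oil, over 49 cells, turned under other limits on barcodes, to 0.02 with no mitochondrial limit. Of the 75 nuclear members, 50 (66.7%) were lower by 0.1 in the library labelled oil, against 43.6% of all genes, and 52 (69.3%) in the library labelled tamoxifen, against 40.9%. Ribosomal protein genes were that much lower in 57 of 84 (67.9%) and 17 of 84 (20.2%), and proteasome genes in 8 of 14 (57.1%) in each library. These cells were shallower, with medians of 6385 and 6556 UMIs against 8992 and 8606, and held fewer G2M UMIs (0.690% and 0.563% against 0.985% and 0.877%). Within bins of cells by UMIs in the library labelled tamoxifen the nuclear log2 ratio was -0.16, -0.09 and -0.09, and within bins by G2M genes it was -0.18, -0.03 and -0.08. In the library labelled oil it was -0.29, -0.17 and 0.05 by UMIs, the last over 11 interferon cells, and by G2M genes -0.23, -0.03 (-0.16 to 0.09) and -0.07 (-0.19 to 0.04).

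Cells rich in the mast cell protease genes Mcpt1 and Mcpt2 also had less of the nuclear subunits. With at least 5 such UMIs of 3000, 335 cells of the library labelled oil had 1.95%, against 2.45% in other cells (log2 ratio -0.32, -0.34 to -0.30), and 152 cells of the library labelled tamoxifen had 1.75%, against 2.35% (-0.43, -0.46 to -0.40). Both were smaller in deeper cells, at -0.34, -0.18 and -0.13 over 3 bins by UMIs in the library labelled oil and -0.38, -0.27 and -0.09 (-0.20 to 0.02) in the library labelled tamoxifen. Of the nuclear members 67 (89.3%) and 64 (85.3%) were lower by 0.1, beside 42.1% and 50.2% of all genes. The proteasome list had like shares in these cells, with 12 and 13 of 14 genes (85.7% and 92.9%) that much lower, and of 84 ribosomal protein genes 69 and 44 (82.1% and 52.4%) were. The mitochondrial share was 6.49% against 6.48% in the library labelled oil, and 5.73% against 6.54% in the library labelled tamoxifen (-0.19, -0.21 to -0.17). That last difference was largest in shallow cells. It was -0.27 in the lowest bin by UMIs, with 126 of the 152 cells, and -0.04 and -0.01 in the other bins. The Mcpt cells had medians of 5889 and 4635 UMIs, against 9129 and 8441.

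Some members went against the rest in the same cells, and these were chosen after their values were seen. mt-Co1 was higher in interferon cells, at 11625 against 10047 CPM (log2 ratio 0.21, 0.17 to 0.25) in the library labelled oil and 11495 against 10418 CPM (0.14, 0.13 to 0.15) in the library labelled tamoxifen. mt-Nd1 was lower in the same cells, at 3443 against 4090.5 CPM (-0.25, -0.33 to -0.17) and 3458 against 4303 CPM (-0.32, -0.34 to -0.29), and mt-Nd2 had -0.27 and -0.25. In the Mcpt cells mt-Co1 had 0.23 and 0.21 and mt-Nd1 -0.20 and -0.56. In the highest against the lowest bin by G2M genes the signs turned, with -0.20 and -0.20 for mt-Co1 and 0.12 and 0.27 for mt-Nd1. Both genes are transcribed from the same strand.

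The ratio of mt-Co1 to mt-Nd1 UMIs puts this in 1 number that does not depend on the total of the cell. It was 3.38 (3.18 to 3.59) in interferon cells and 2.46 (2.44 to 2.47) in other cells of the library labelled oil, and 3.32 (3.27 to 3.38) and 2.42 (2.41 to 2.43) in the library labelled tamoxifen. In the Mcpt cells it was 3.29 and 4.23. It also went with depth, at 2.99 and 3.18 in the lowest and 2.31 and 2.29 in the highest bin of cells by UMIs. Within those bins, from lowest to highest, interferon cells of the library labelled tamoxifen had 4.27, 2.88 and 2.65 and other cells 3.00, 2.32 and 2.26, so that the difference held in each bin. The same order was seen in the library labelled oil, with 4.48, 3.03 and 2.70 against 2.97, 2.44 and 2.31. It rests there on only 28, 10 and 11 interferon cells. By bins of G2M genes the ratios were 4.09, 2.62 and 2.50 against 2.98, 2.23 and 2.27 in the library labelled tamoxifen, and 4.47, 2.36 and 2.63 against 2.90, 2.33 and 2.34 in the library labelled oil, where the middle bins hardly differed. The bins of the library labelled oil held 33, 7 and 9 interferon cells.

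Among nuclear members, Ndufa6, an accessory subunit of complex I, was higher in interferon cells (269 against 185 CPM, 0.54, 0.25 to 0.82, and 209 against 171 CPM, 0.29, 0.20 to 0.37) and in Mcpt cells (0.43 and 0.55), and lower in the highest bin by G2M genes (-0.40 and -0.48). The level of 269 CPM rests on 104 UMIs of 49 cells. Ndufa5, of the same complex, went the other way, with -0.41 and -0.78 in Mcpt cells and 0.40 and 0.44 by G2M genes. Ndufa1 followed Ndufa6 in the Mcpt cells (0.15 and 0.40) and by G2M genes (-0.20 and -0.25). Interferon and Mcpt cells were shallower than other cells, and the part of depth in the values of these genes was not tested.

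Cox6b2, the member with the largest difference between libraries (24.8 and 31.6 CPM, log2 ratio 0.35, 0.25 to 0.44), was also uneven over cells of the library labelled tamoxifen. It had 50.3 CPM in interferon cells (301 UMIs) and 29.8 CPM in others, a log2 ratio of 0.76 (0.58 to 0.93). In the library labelled oil it had 33.7 CPM (13 UMIs) and 25 CPM (0.43, -0.48 to 1.21). Among cells below 10 interferon UMIs, its log2 ratio between the libraries was 0.26 (0.15 to 0.36). By S phase genes Cox6b2 was lower in the highest bin, with 25.6 against 44.9 CPM (-0.81, -0.97 to -0.66) in the library labelled tamoxifen and 25.1 against 27.7 CPM (-0.14, -0.32 to 0.04) in the library labelled oil. Its ubiquitous partner form Cox6b1 had -0.29 and -0.11 in interferon cells and 0.10 and 0.11 by S phase genes. In the shallowest bin of cells Cox6b2 had 62.6 CPM in interferon cells of the library labelled tamoxifen and 38.6 CPM in others, and in the deepest bin 36.7 and 25.8 CPM. By bins of G2M genes it had 60.4, 44.5 and 29.4 against 37.6, 26.6 and 27.4 CPM there, so that the highest bins hardly differed. In the library labelled oil the bins by UMIs had 34.4, 56.6 and 19.6 against 25.6, 26.5 and 23.9 CPM. These rest on 5, 5 and 3 UMIs in interferon cells.

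**Figure D4:**
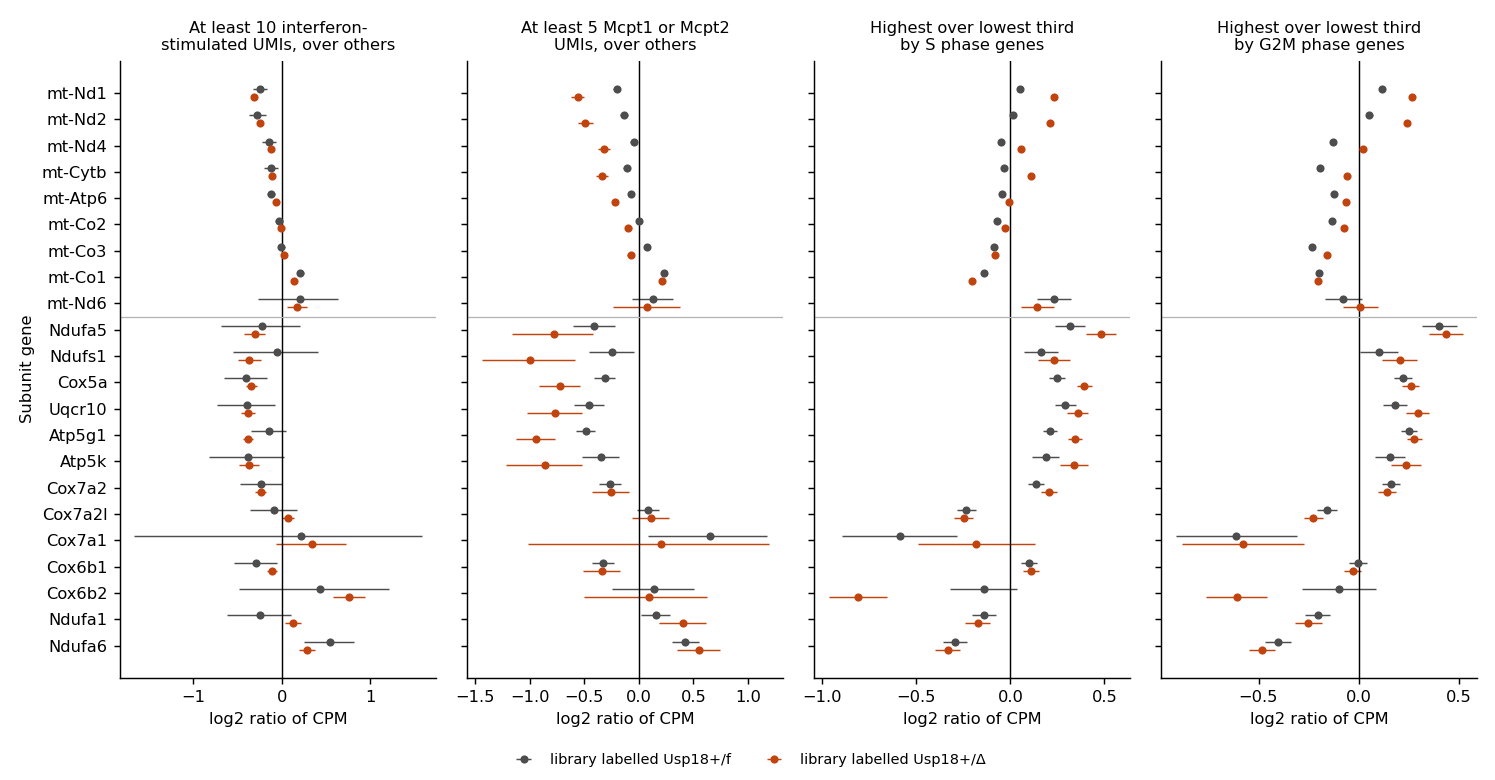
Rows are mitochondrial (above the line) and nuclear members, and each panel gives the log2 ratio of CPM between 2 sets of cells of the same library on its x axis, with 95% counting intervals, in dark grey for oil (Usp18+/f) and orange for tamoxifen (Usp18+/Δ). mt-Co1, Ndufa6 and Ndufa1 lie opposite to mt-Nd1 and Ndufa5 in the Mcpt panel and again, with signs turned, in the G2M panel.

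The barcodes at both ends of the mitochondrial share were looked at by gene, since they were set by the sum and not by any 1 gene. Levels here are UMIs per 1000000 UMIs outside mt- genes. In the barcodes under 2% the sum fell by construction, yet mt-Nd6 was higher than in kept barcodes of 2 to 10%, with 683 against 103 in the library labelled oil (265 UMIs, log2 ratio 2.72, 2.54 to 2.90) and 464 against 110.4 in the library labelled tamoxifen (43 UMIs, 2.07, 1.60 to 2.50). mt-Nd1 had 338 against 4357 and 259 against 4495 (-3.69 and -4.12). mt-Atp8 had 0.57 (0.09 to 1.01) and 0.59 (-0.47 to 1.47), so that it did not fall with mt-Atp6, the other end of its RNA (-3.53 and -2.80). mt-Nd4l had 0.26 (-0.13 to 0.63) and -0.73 (-2.05 to 0.31), while mt-Nd4 had -2.56 and -2.75. Both small genes had few UMIs in these barcodes, 41 and 10 for mt-Atp8 and 60 and 7 for mt-Nd4l. mt-Nd3 and mt-Nd5 fell by 1.06 and 1.21 on the log2 scale in the library labelled oil, where mt-Co1 had -2.46 and mt-Cytb -3.73. In the library labelled tamoxifen mt-Nd3 had -1.97 (-2.84 to -1.22), mt-Nd5 -1.43, mt-Co1 -1.74 and mt-Cytb -3.60.

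These barcodes were shallow, with medians of 1068 and 1236 UMIs. Their nuclear subunits had 19688 against 26167 (-0.41, -0.44 to -0.38) and 17484 against 25519 (-0.55, -0.62 to -0.48), and all 5 complexes were lower in both libraries. In the 161 and 242 barcodes over 10%, with at least 500 genes, the sum was higher by 1.0 and 1.06 and mt-Nd6 by only 0.23 (-0.08 to 0.52) and 0.44 (0.20 to 0.68). Nuclear subunits there were at -0.05 and -0.15. Without the barcodes under 2%, the mitochondrial log2 ratio between libraries was 0.02 in place of 0.03.

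**Figure D5:**
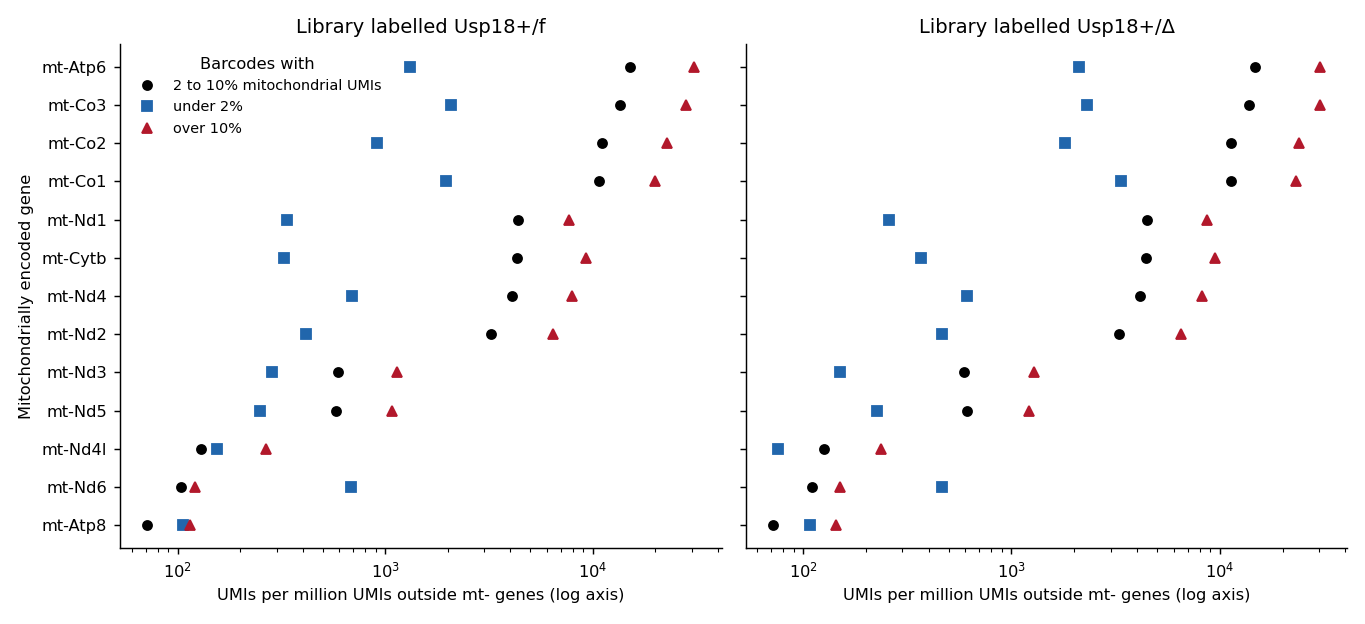
Each row is 1 mitochondrially encoded gene, ordered by its level in the library labelled oil, and the log x axes give UMIs per 1000000 UMIs outside mt- genes in barcodes under 2% (squares), of 2 to 10% (circles) and over 10% (triangles) mitochondrial UMIs, 1 panel a library. mt-Nd6 is the gene whose square lies far to the right of its circle, at 683 against 103 and 464 against 110.4.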

How the data were processed

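The authors prepared 10x Genomics 3′ V3 libraries and ran Cell Ranger 3.0.2 on mm10, which gave the deposited tables of UMI counts per gene and barcode, not normalized. Barcodes below 500 genes or above 10% mitochondrial UMIs were dropped. Doublets were kept because Scrublet (scanpy 1.11.5) marked only 0.0436% and 0.0270% of cells and had not worked. UMIs were summed per library and scaled to CPM. Levels have exact Poisson and ratios exact conditional 95% intervals, with functions tested on simulated data. Cells were thinned to 3000 UMIs for shares, classes and bins. With 1 library per group there is no test.

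The genes named are all mt- members, in each complex the 3 nuclear members with the highest mean CPM, the 5 largest and 5 smallest log2 ratios among nuclear members of at least 20 CPM, the isoform sets, 6 subunits the naming missed, and Usp18. Ndufa11, Ndufa6, Ndufa5, Ndufa1 within classes of cells and the list genes were named after their values were seen. Members and lists were chosen with earlier results of these data known. Alternatives changed the cells, scaling, thresholds, thinning, correlation and number of bins. Comparisons with coding length, per member within classes of cells, of mt-Co1 with mt-Nd1, and by mitochondrial share of barcodes were added after seeing the data. Positions are from GENCODE vM21 (GRCm38, the same assembly as mm10) and promoters from RefSeq.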

Additional observations from a re-analysis of the deposited data

Results flagged for a closer look

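Cells with a UMI of Cpa3, a mast cell carboxypeptidase gene, differed from other cells in mitochondrial level with opposite signs in the libraries. The log2 ratio was 0.0560 in the library labelled oil (992 cells, 0.05 to 0.06) and -0.0179 in the library labelled tamoxifen (1478 cells, -0.02 to -0.01). The opposite signs hold for shares of thinned cells. Over all UMIs of the same cells the values were 0.06 and 0.00 (-0.002 to 0.005). The difference was not tested, since each group is 1 library. Within bins of cells by UMIs the values were 0.03, 0.01 and 0.02 in the library labelled oil and -0.07, -0.02 and 0.03 in the library labelled tamoxifen. Nuclear subunits were lower in Cpa3 cells of both libraries, at -0.19 and -0.23, and by bins of UMIs at -0.24, -0.08 and -0.08 and at -0.26, -0.09 and -0.09.

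Deposited barcodes with under 500 genes, which no comparison of the report uses outside the alternative with all barcodes, held mostly mitochondrial UMIs. Their median share was 73.1% over 234 barcodes of the library labelled oil and 94.9% over 185 barcodes of the library labelled tamoxifen, against 6.31% and 6.43% in kept cells. Nuclear subunits took 0.879% and 0.326% of their UMIs.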

How the results depend on the processing

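No paired analysis was possible because there is a single library to a group, and for the same reason no replicate was left out. Values are given first for the library labelled oil and then for the library labelled tamoxifen where there are 2.

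The mitochondrial log2 ratio of 0.03 kept its sign in all settings, at 0.0406 with all deposited barcodes, 0.0348 with no mitochondrial limit, 0.0341 with at most 20%, 0.0222 with at least 2%, 0.0257 without the highest 5% of Scrublet scores, 0.0132 in cells of 5000 to 15000 UMIs, 0.0119 with median-of-ratios size factors and 0.0556 as a mean of each cell's share. The nuclear ratio of -0.04 also kept its sign, at -0.0268 in cells of 5000 to 15000 UMIs, -0.0399 with at least 2% and no upper limit, -0.0527 with size factors and -0.0488 as a mean of shares. Mitochondrial over nuclear was 0.0796, 0.0734 and 0.0726 with all barcodes, no limit and at most 20%, 0.0598 with at least 2%, 0.0688 with at least 2% and no upper limit, 0.03996 in cells of 5000 to 15000 UMIs and 0.104 as a mean of shares. At a log2 ratio of 0.25 the nuclear members numbered 1 higher and 0 lower.

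Medians per cell moved to 6.31% (mitochondrial, oil) without thinning, 6.40% (mitochondrial, tamoxifen) at 1500 UMIs, 6.53% and 2.40% (mitochondrial and nuclear, tamoxifen) in cells of 5000 to 15000 UMIs, and 2.59% and 2.52% for nuclear UMIs outside mt- genes. The correlation of both genomes over cells changed sign with the setting. It was -0.0599 and -0.0616 with all barcodes or no limit, -0.0620 (tamoxifen) with at most 20%, -0.0744 and -0.0741 with at least 2% and no upper limit, -0.000626 and 0.0365 at 1500 UMIs, 0.140 and 0.0585 without thinning, 0.0430 and 0.0515 outside mt- genes, and -0.0337 (tamoxifen) by rank.

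Some differences between classes of cells turned, among them the nuclear one of interferon cells. The mitochondrial one of interferon cells (oil) was 0.0212 with all barcodes or no limit, 0.0184 with at least 2% and no upper limit and 0.000522 in cells of 5000 to 15000 UMIs. That of Cdkn1a cells (tamoxifen) was 0.000620 with all barcodes or no limit. The nuclear one by G2M genes (tamoxifen) was -0.00434 in cells of 5000 to 15000 UMIs. Without thinning the nuclear ones were 0.00520 for beta globin cells (oil), 0.0177 for interferon cells (tamoxifen) and 0.00544 for Cdkn1a cells (tamoxifen). The cause was not tested.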
